A study of Mus musculus with 28 samples.

Results

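The libraries described here are a further set of epididymal white fat (eWAT, the visceral fat pad beside the mouse epididymis) in a bulk RNA-seq series on Fgf13. The set holds 6 of the 28 libraries of the series, 3 labelled wild-type control and 3 labelled Fgf13 knockout (Fgf13 KO), and its members were chosen by these labels. Its labels name no strain, age, diet, Cre driver or kind of knockout. The 2 other sets used beside it are ieWAT, epididymal fat of an inducible adipose knockout, and sWAT, subcutaneous white fat of a constitutive adipose knockout, with 3 control and 3 knockout libraries each. Both came from mice made obese by 20 weeks on a diet high in fat. Of the 55891 genes in the eWAT table, the 13736 with at least 1 FPKM (fragments scaled to transcript length and library total) in 3 or more libraries were compared. Nothing in the labels ties each library to an animal of its own, so every p measures the spread between these samples, which may be technical.

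FGF13 belongs to the FGF homologous factors, members of the fibroblast growth factor family that stay inside the cell and are best known as partners of voltage-gated sodium channels. The adipocytes of a white fat pad take up glucose and fatty acids, store triglyceride in a lipid droplet and secrete hormones such as leptin and adiponectin. The pad also holds capillaries, fibroblast-like progenitors, macrophages, mast cells and lymphocytes. In bulk tissue, fewer cells of a type and less RNA per cell cannot be told apart.

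Fgf13, the targeted gene, was read first. It stood at 20.4, 27.6 and 12.9 FPKM in the control libraries and 23.1, 17.6 and 27.02 FPKM in the libraries labelled knockout. The groups overlapped, with the lowest and the highest of the 6 values both in control libraries (log2 change 0.19, SE 0.28, adjusted p = 0.677, exact two-sided permutation p = 0.7, the smallest possible being 0.1). The level of Fgf13 therefore does not back the labels in this set, and the direction of every change below is the one the labels give. In the other sets the libraries labelled knockout all lay below their controls, with 51.4, 41.8 and 39.7 CPM against 25.2, 22.6 and 33.4 CPM in ieWAT and 110.1, 113 and 106 CPM against 43.01, 62.5 and 83.99 CPM in sWAT (log2 changes -0.70 and -0.83, exact permutation p = 0.1 each). Of the voltage-gated sodium channel genes, the 4 tested all missed the threshold.

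Adipocyte markers were abundant in all 6 libraries, and of 25 markers of epididymal epithelium 2 passed the filter on low values, of 10 markers of seminal vesicle 0. Ucp1, the uncoupling protein of brown fat, was at 0.0526 to 0.614 FPKM and was not tested. Column sums ran from 628973 to 695891 FPKM. Read totals are unknown, and the relative depth estimated from low values was 0.637 to 1 times that of the first control library. Library values correlated at 0.936 to 0.985 (Spearman). The first principal component, 49.9% of the variance, held the control libraries at -39.0 to -16.5 and the libraries labelled knockout at 19.2 to 36.5. The second, 23.4%, set the first control library (26.1) and the second library labelled knockout (30.2) apart from the other 4 (-17.3 to -9.94).

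With limma on log2(FPKM + 1), 2041 of 13736 genes passed an adjusted p of 0.05 (14.9%), 1395 higher in the libraries labelled knockout (10.2%) and 646 lower (4.70%). The median change of all genes tested was -0.02. Changes of at least 2-fold on this scale, which understates the change of low genes, numbered 310 higher and 80 lower. The 3 values of one group lay wholly above the 3 of the other in 5656 genes (41.2%), and 4650 (33.9%) had an unadjusted p under 0.05. The number of calls depended on single libraries. Leaving out the first, the second or the third control library left 1895, 633 and 1217 calls. Leaving out the first, the second or the third library labelled knockout left 1175, 950 and 2. Without the third of these 3285 genes (24.3%) had an unadjusted p under 0.05 and 1133 passed an adjusted p of 0.1, and all 1990 genes called from 6 libraries and still tested kept their sign. At an adjusted p of 0.01, 10 genes passed. A further deposited table of the same samples holds TPM (values per transcript length, scaled to a fixed total). Its columns correlated with the FPKM columns of the same library at 0.694 for the second control library and at 0.842 to 0.859 for the others. With the TPM values 1 gene passed, 516 had an unadjusted p under 0.05 and the median change was 0.66. The part of the second control library in these TPM results was not tested. In the fit without the third library labelled knockout, none of the gene lists below had a called member, although 3285 genes had an unadjusted p under 0.05, so that the medians of most lists in that fit are given below.

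**Figure D1:**
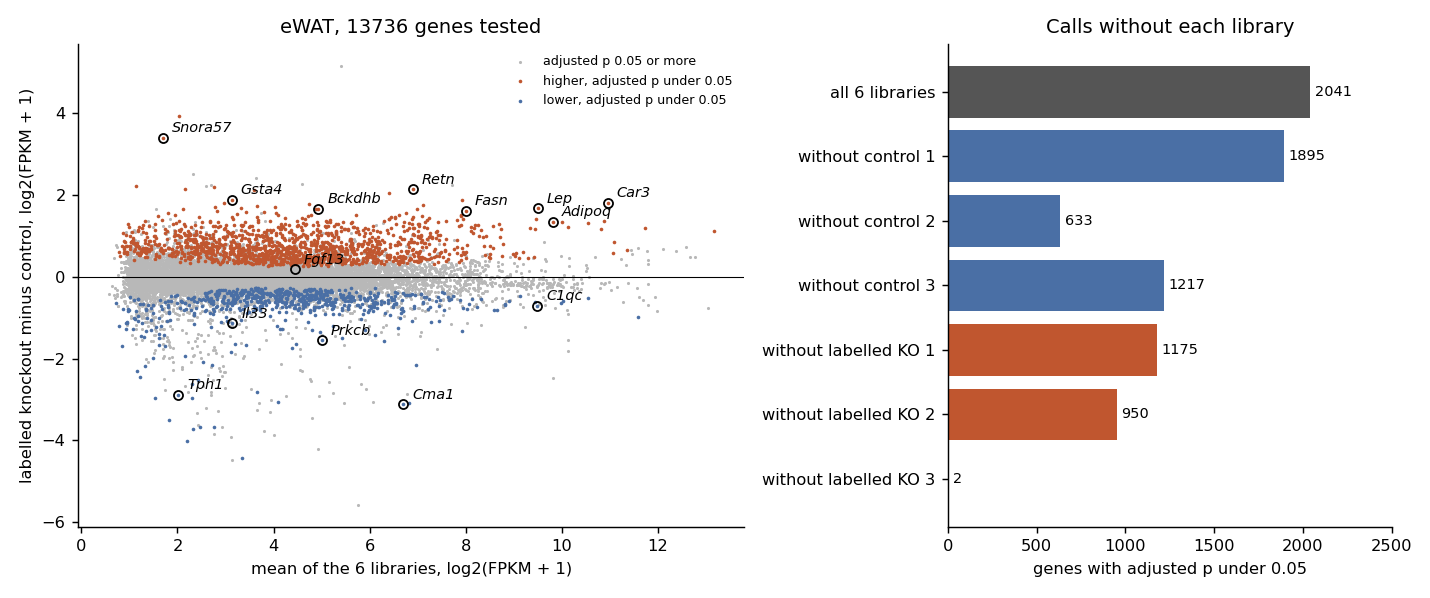
Left, change of each of 13736 genes (libraries labelled knockout minus control, log2(FPKM + 1)) against its mean over 6 libraries, with calls coloured and 14 genes circled; right, number of genes with adjusted p under 0.05 with all libraries and without each one. Calls lie on both sides of 0, Fgf13 lies near 0, and the bar falls from 2041 to 2 without the third library labelled knockout (KO).

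Genes that mark adipocytes were higher in the libraries labelled knockout. Of 16 markers tested, 15 passed the threshold as higher and 0 as lower, with a median log2 change of 1.20, beside 10.2% of all genes called higher. The values of the 2 groups did not overlap for any of the 16, beside 21.6% of all genes that lay higher without overlap. The summed level of the list was 11461, 10684 and 8381 FPKM in the control libraries and 21288, 24748 and 26993 FPKM in the libraries labelled knockout. Every control library was at less than the lowest library labelled knockout, and the third control library was the lowest of all. Lep, which encodes the satiety hormone leptin, was at 476, 463 and 298 FPKM in the control libraries and 1504, 1049 and 1387 FPKM in the libraries labelled knockout (3.19-fold in the means; log2 change 1.68, SE 0.22, adjusted p = 0.0122). Adipoq, the gene of adiponectin, was at 687, 614 and 412 FPKM in the control libraries and 1294, 1468 and 1530.2 FPKM in the libraries labelled knockout (log2 change 1.35, SE 0.20, adjusted p = 0.0128). For both genes the third control library held the lowest value. Slc2a4, the insulin-responsive glucose transporter GLUT4, was at 15.2, 10.7 and 10.02 FPKM against 26.1, 31.03 and 33.5 FPKM (log2 change 1.28, SE 0.17, adjusted p = 0.0122). Here and below, values before and after "against" are those of control replicates 1 to 3 and of the replicates labelled knockout, and a bare signed value or decimal in brackets is a log2 change. Pparg, the nuclear receptor that directs adipocyte differentiation, changed less, from 49.1 ± 4.26 to 85.8 ± 8.43 FPKM (SD, n = 3 each; log2 change 0.79, SE 0.11, adjusted p = 0.0122). Adrb3, the adipocyte adrenergic receptor, was the 1 marker that did not pass (1.55, adjusted p = 0.129). The adipocyte list had 13 to 16 higher calls with 1 of the other 5 libraries left out, and a median of 1.16 without the third library labelled knockout.

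Hormones and other proteins secreted by adipocytes followed the same pattern. Of 16 genes tested, 10 passed as higher and 0 as lower, with a median of 1.28. Retn, which encodes resistin, was at 93.2, 46.96 and 39.5 FPKM in the control libraries and 256, 207 and 295 FPKM in the libraries labelled knockout (log2 change 2.15, SE 0.32, adjusted p = 0.0137). Sfrp5, a secreted Wnt inhibitor, was at 55.01, 46.8 and 26.3 FPKM against 211, 115 and 207 FPKM (log2 change 2.04, SE 0.34, adjusted p = 0.018). The second library labelled knockout was the lowest of its group for both genes and still above each control library. Cfd, the complement protease adipsin, rose 3.50-fold (log2 change 1.89, SE 0.29, adjusted p = 0.0142) and Rbp4, the retinol carrier, 3.20-fold (log2 change 1.67, SE 0.23, adjusted p = 0.0122). Retnla, a resistin-like protein that macrophages also make, had the largest estimate of the list (2.24) and did not pass (adjusted p = 0.0523). Car3, a carbonic anhydrase that is abundant in adipocytes, was at 1612, 985 and 737 FPKM against 3211, 3822 and 4203 FPKM (log2 change 1.82, SE 0.28, adjusted p = 0.0138). The adipokines list had 6 to 11 higher calls with 1 of the other 5 libraries left out (6 without the second control library), and a median of 1.30 without the third library labelled knockout.

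**Figure D2:**
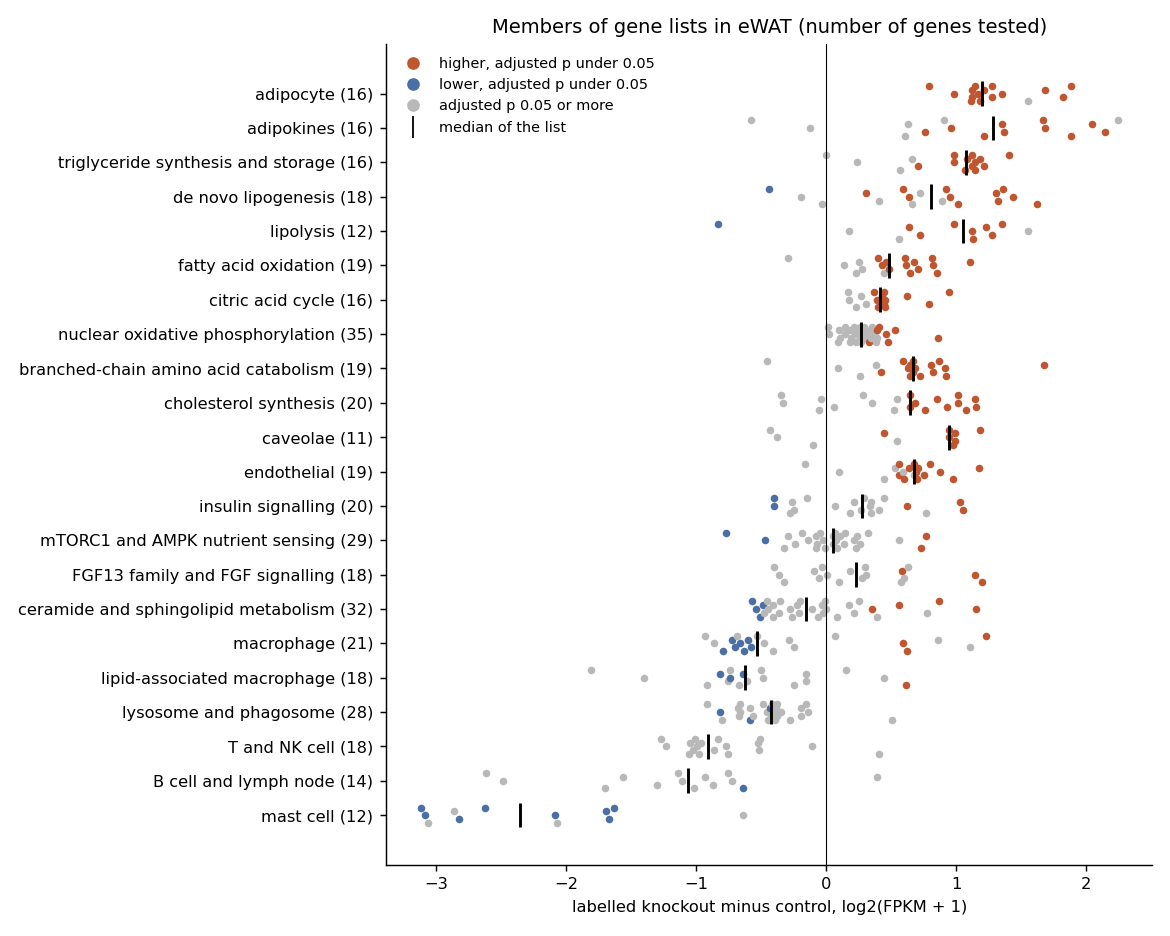
Change of each tested member of 22 gene lists (libraries labelled knockout minus control, log2(FPKM + 1)), one point per gene, coloured by call, with the list median as a bar. Adipocyte, lipid storage, branched-chain amino acid, cholesterol, caveolae and endothelial lists lie mostly above 0, and mast cell, lymphocyte and macrophage lists mostly below.

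Genes of triglyceride synthesis and droplet coating were higher, 12 of 16 tested and 0 lower (median 1.08). Beside this count and those of the other lists, 10.2% of all genes were called higher and 4.70% lower. Dgat1 and Dgat2, which catalyse the last step of triglyceride synthesis, were at 59.4, 62.6 and 48.1 FPKM against 111, 120.05 and 132 FPKM and 525, 484 and 321 FPKM against 1159.5, 1115 and 1186 FPKM (1.08 and 1.41, adjusted p = 0.0122 each). Cidec, which drives droplet fusion, was at 832, 814 and 582 FPKM against 1607, 1675 and 1846 FPKM. Bscl2 (seipin, which shapes the droplet) rose 1.98-fold and the droplet coat gene Plin1 2.24-fold. In each of these 5 genes the lowest control value was that of the third control library, and the groups stood apart. The triglyceride synthesis and storage list had 9 to 12 higher calls with 1 of the other 5 libraries left out, and a median of 1.02 without the third library labelled knockout.

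Lipolysis genes were higher as well, with 8 of 12 tested higher, 1 lower and a median of 1.05. Of these genes, Pnpla2, Lipe and Adrb3 are also on the adipocyte list. Other lists share genes too, such as Cfd of the adipocyte list with complement and Slc2a4 with glycolysis. Counts of different lists are therefore not independent. Pnpla2 (ATGL) and Lipe (HSL), the first 2 lipases of triglyceride breakdown, were at 330.2, 312 and 259.9 FPKM against 547, 559 and 678 FPKM and 232, 197 and 141 FPKM against 424, 475 and 459 FPKM (0.98 and 1.28, adjusted p = 0.0122 each). Npr3, the clearance receptor of natriuretic peptides, was at 104, 102 and 63.8 FPKM against 221, 219 and 236 FPKM (1.35). The lipolysis list had 5 to 9 higher calls with 1 of the other 5 libraries left out (5 without the second control library), and a median of 0.96 without the third library labelled knockout.

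De novo lipogenesis, the making of fatty acids from acetyl-CoA, had 11 of 18 genes higher, 1 lower and a median of 0.81. Fasn, the fatty acid synthase, was at 159.95, 166 and 116 FPKM in the control libraries and 561, 275 and 584 FPKM in the libraries labelled knockout (log2 change 1.62, SE 0.31, adjusted p = 0.0235). The second library labelled knockout was well below the other 2 of its group, and still above all controls. Mlxipl (ChREBP, a carbohydrate-responsive transcription factor) was at 6.88, 6.97 and 6.09 FPKM against 16.4, 12.1 and 13.2 FPKM, and the lipogenic regulator Thrsp at 71.1, 55.3 and 41.8 FPKM against 154, 118 and 185 FPKM (0.95 and 1.43). Scd1, the stearoyl-CoA desaturase, rose 2.45-fold and Pnpla3, a lipid droplet acyltransferase and hydrolase, 2.42-fold. Fads1, a desaturase of polyunsaturated fatty acids, was the 1 lower member (26.97, 32.3 and 34.5 FPKM against 24.9, 20.6 and 22.5 FPKM; log2 change -0.44, SE 0.12, adjusted p = 0.0492). The de novo lipogenesis list had 2 to 9 higher calls with 1 of the other 5 libraries left out (2 without the second control library, 5 without the first library labelled knockout and 6 without the third control library), and a median of 0.68 without the third library labelled knockout.

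Of 15 genes of fatty acid uptake and activation, 6 were higher and 0 lower (median 0.15). Fabp4, the adipocyte fatty acid binding protein, was at 6527, 6641 and 5471 FPKM against 11248, 14044 and 15274 FPKM (1.12). Acsl1, the main acyl-CoA synthetase of adipocytes, rose 2.005-fold (1.01, adjusted p = 0.0231), and Angptl4, an inhibitor of lipoprotein lipase, 1.70-fold (0.76, adjusted p = 0.0134). The lipase gene Lpl itself (0.45) and the fatty acid transporter gene Cd36 (-0.16) did not pass (adjusted p = 0.0541 and 0.518). The fatty acid uptake and activation list had 3 to 5 higher calls with 1 of the other 5 libraries left out (3 without the second control library), and a median of 0.13 without the third library labelled knockout.

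Genes of mitochondrial pathways were higher as well. Of 19 genes of fatty acid oxidation 13 were higher and 0 lower (median 0.48), of 16 genes of the citric acid cycle 11 and 0 (median 0.42), and of 35 nuclear genes of oxidative phosphorylation 7 and 0 (median 0.27, with all 35 changes above 0). Acads, the short-chain acyl-CoA dehydrogenase, was at 55.3, 54.4 and 50.9 FPKM in the control libraries and 77.3, 83.1 and 87.2 FPKM in the libraries labelled knockout (log2 change 0.61, SE 0.08, adjusted p = 0.0122). Cpt2, which hands fatty acids to the matrix, was at 30.1, 28.8 and 25.5 FPKM against 39.9, 50.8 and 49.1 FPKM (0.70). Decr1, needed to oxidise unsaturated fatty acids, rose 1.83-fold. In the citric acid cycle, Sucla2 and Idh3a, subunits of succinyl-CoA ligase and isocitrate dehydrogenase, were at 57.1, 58.04 and 52.98 FPKM against 77.4, 87.6 and 95.7 FPKM and 72.1, 76.9 and 59.3 FPKM against 111, 112 and 139 FPKM (0.62 and 0.79). Among respiratory chain genes, the complex I subunit gene Ndufb3 was at 83.02, 90.2 and 91.5 FPKM against 141, 155 and 191 FPKM (0.86) and Cycs, cytochrome c, at 17.3, 17.03 and 17.6 FPKM against 22.2, 27.1 and 27.4 FPKM (0.53). Of 13 mitochondrially encoded genes, whose median was 0.65 and 0.69 without the third library labelled knockout, 12 did not overlap and lay higher, beside 21.6% of all genes. Only 1 of the 13 passed, beside 10.2% of all genes called higher. It was mt-Nd4, at 2043, 2251 and 1982 FPKM against 2793, 4058 and 3195 FPKM (log2 change 0.66, SE 0.16, adjusted p = 0.0402). The second library labelled knockout had the highest sum of these 13 genes, 77318 FPKM against 34716 to 50813 FPKM in the others. The fatty acid oxidation list had 4 to 11 higher calls with 1 of the other 5 libraries left out (4 without the second control library). The citric acid cycle list had 2 to 10 higher calls with 1 of the other 5 libraries left out (2 without the second control library or the second library labelled knockout, 3 without the third control library and 6 without the first control library). The nuclear oxidative phosphorylation list had 1 to 7 higher calls with 1 of the other 5 libraries left out (1 without the second control library or the second library labelled knockout and 3 without the first or the third control library). The 3 medians without the third library labelled knockout were 0.40, 0.37 and 0.24.

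Genes that break down the branched-chain amino acids leucine, isoleucine and valine were higher, 15 of 19 tested, with 0 lower and a median of 0.67. Bckdhb, the E1 beta subunit of the branched-chain ketoacid dehydrogenase that commits these amino acids to oxidation, had the largest change of the list. It was at 16.05, 17.5 and 14.8 FPKM in the control libraries and 46.5, 54.4 and 60.3 FPKM in the libraries labelled knockout (3.34-fold; log2 change 1.67, SE 0.12, adjusted p = 0.00467). Its groups stood far apart. The other subunits of the complex changed less, with Bckdha (E1 alpha) at 44.9, 40.6 and 38.2 FPKM against 61.2, 70.2 and 67.3 FPKM (0.67) and Dbt (E2) at 10.5, 10.6 and 8.92 FPKM against 15.6, 18.1 and 17.9 FPKM (0.73). Hibch, a hydrolase of valine breakdown, was at 22.6, 22.9 and 18.4 FPKM against 35.4, 40.8 and 42.9 FPKM (0.87), and Bcat2, the mitochondrial transaminase that starts the pathway, rose 1.35-fold. Bckdk, the kinase that switches the complex off, and Ppm1k, the phosphatase that switches it on, did not pass (0.09 and -0.46, adjusted p = 0.433 and 0.0643). The branched-chain amino acid catabolism list had 6 to 15 higher calls with 1 of the other 5 libraries left out (6 without the second control library and 8 without the second library labelled knockout), and a median of 0.64 without the third library labelled knockout.

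**Figure D3:**
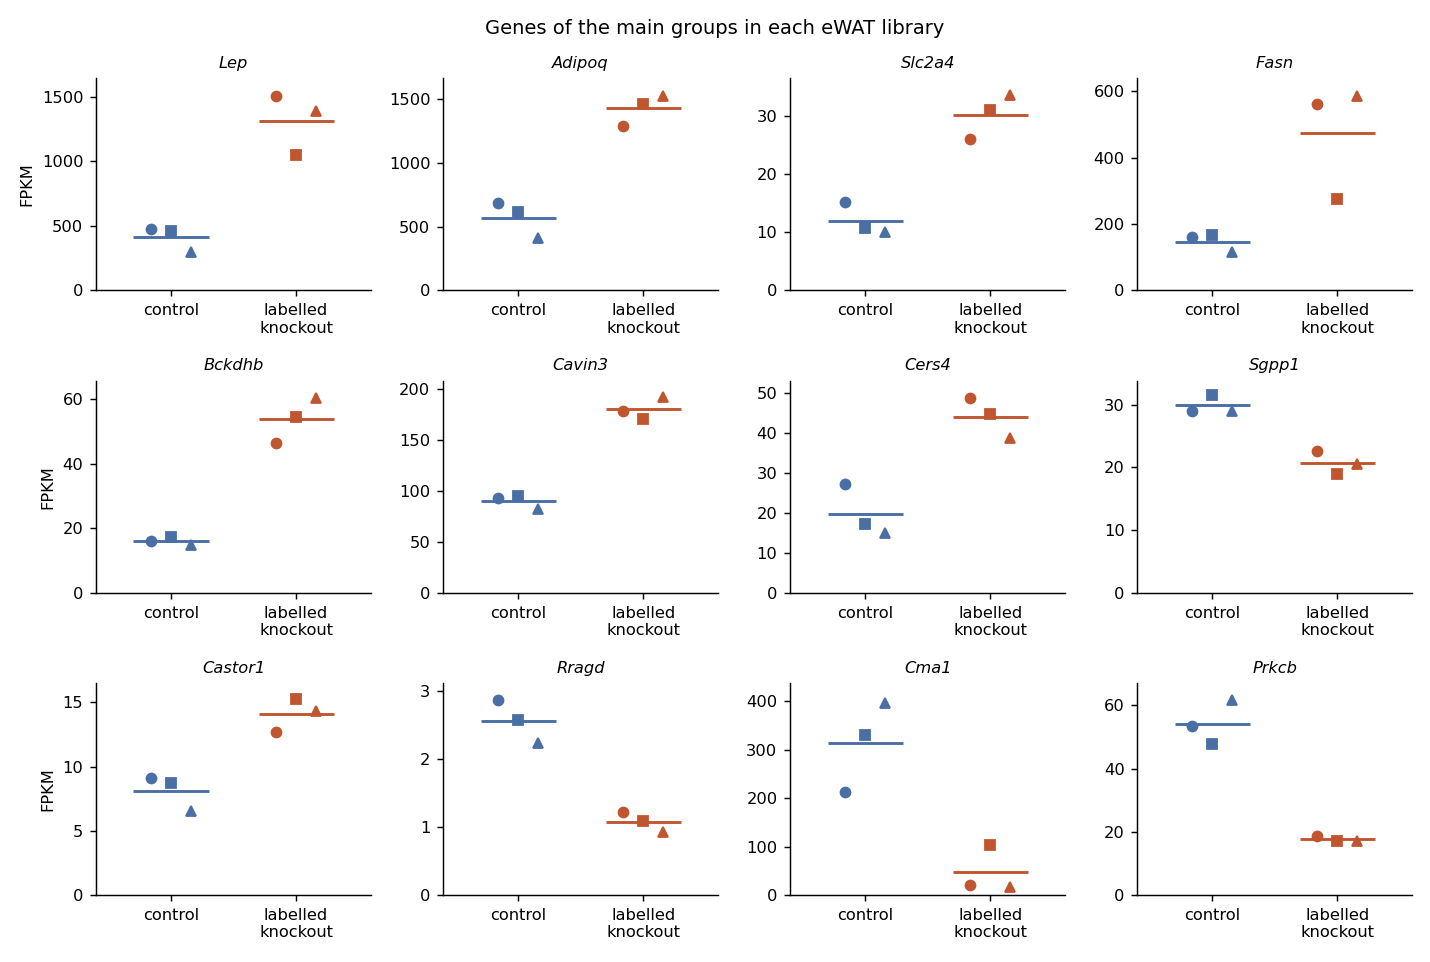
FPKM of 12 genes in each of the 6 eWAT libraries (blue, control; orange, labelled knockout; circle, square and triangle, replicates 1, 2 and 3; bars, means). In each panel the 3 values of one group lie above the 3 of the other, and the second library labelled knockout stands nearest to the controls for Lep, Fasn and Cma1.

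Cholesterol synthesis genes were higher, 11 of 20 tested, with 0 lower and a median of 0.64. These genes are known to be switched on together by sterol-regulated factors, whose own sites were not searched. The 250 bases before the start of 3 called members are shown, from RefSeq on the GRCm38.p6 build. Each CCAAT box (CCAAT, or ATTGG on the other strand) is in capitals. Mvk lies at chr5:114444019-114444268, plus strand, Idi1 at chr13:8885356-8885605, plus strand and Sc5d at chr9:42264301-42264550, minus strand, and each is printed 5′ to 3′ toward its start.
Mvk: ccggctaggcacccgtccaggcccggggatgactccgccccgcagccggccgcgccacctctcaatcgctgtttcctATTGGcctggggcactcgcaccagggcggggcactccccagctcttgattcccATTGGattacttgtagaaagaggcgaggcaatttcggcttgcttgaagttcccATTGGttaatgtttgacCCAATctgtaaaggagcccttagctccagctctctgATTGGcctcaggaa
Idi1: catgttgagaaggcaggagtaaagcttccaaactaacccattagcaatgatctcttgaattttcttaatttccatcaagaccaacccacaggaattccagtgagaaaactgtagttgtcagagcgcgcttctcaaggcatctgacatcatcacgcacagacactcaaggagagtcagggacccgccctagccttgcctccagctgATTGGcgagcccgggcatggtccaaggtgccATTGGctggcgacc
Sc5d: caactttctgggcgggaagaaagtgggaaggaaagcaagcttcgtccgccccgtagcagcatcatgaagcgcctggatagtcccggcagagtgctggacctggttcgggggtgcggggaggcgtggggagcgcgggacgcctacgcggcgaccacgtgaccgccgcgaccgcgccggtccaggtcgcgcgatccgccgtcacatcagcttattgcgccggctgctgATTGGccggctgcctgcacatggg
A promoter entry was found for 14 of the 20 tested members, and all 14 (100%) held CCAAT on either strand in these 250 bases, against 10133 of 27025 genes (37.5%) with an entry. The match describes the letters only.

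Mvk, the mevalonate kinase, was at 16.3, 16.02 and 12.95 FPKM in the control libraries and 28.1, 25.9 and 29.8 FPKM in the libraries labelled knockout (log2 change 0.85, SE 0.11, adjusted p = 0.0122). Idi1, the isopentenyl diphosphate isomerase with 2 boxes in the stretch printed, was at 13.4, 14.1 and 14.2 FPKM against 23.9, 20.2 and 24.9 FPKM (0.68). Sc5d, an enzyme of the last steps to cholesterol, was at 32.1, 34.6 and 25.1 FPKM against 75.2, 56.3 and 74.8 FPKM (1.14). In these 3 genes the second library labelled knockout was the lowest of its group, and no group overlapped. Hmgcs1, an early enzyme, rose 1.90-fold and Insig1, a sterol sensor that holds the pathway in check, 2.25-fold. The cholesterol synthesis list had 7 to 13 higher calls with 1 of the other 5 libraries left out (7 without the first library labelled knockout), and a median of 0.56 without the third library labelled knockout.

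Caveolae, the membrane pits that cover adipocytes and endothelial cells, had 7 of 11 genes higher and 0 lower (median 0.94), beside 10.2% of all genes called higher. The 3 members with a change below 0 (lowest -0.43) did not pass. All 3 lay lower without overlap, beside 19.6% of all genes. Cav1, which forms the coat, was at 522, 537 and 340.4 FPKM in the control libraries and 967, 1129.8 and 1026 FPKM in the libraries labelled knockout (log2 change 1.18, SE 0.19, adjusted p = 0.0149), and Cav2 at 128, 131 and 101 FPKM against 201, 258 and 234 FPKM (0.94). The cavins that stabilise the coat also rose: Cavin1 was at 239, 269 and 198 FPKM against 449, 439 and 497 FPKM (0.98) and Cavin3 at 93.3, 95.2 and 82.2 FPKM against 178, 171 and 192 FPKM (0.99). Cavin2 rose 1.91-fold, Ehd2, an ATPase at the caveolar neck, 1.99-fold, and Ehd1 1.37-fold. The caveolae list had 5 to 7 higher calls with 1 of the other 5 libraries left out, and a median of 0.86 without the third library labelled knockout.

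Endothelial markers were higher in 13 of 19 genes and lower in 0 (median 0.67), with summed levels of 578, 572 and 489 FPKM in the control libraries and 756, 1012 and 841 FPKM in the libraries labelled knockout. The second library labelled knockout was the highest. Cldn5, a tight junction protein of vessels, was at 47.6, 43.4 and 32.1 FPKM against 91.1, 95.1 and 91.7 FPKM (log2 change 1.18, SE 0.15, adjusted p = 0.0122). Sox18 and Sox17, endothelial transcription factors, were at 15.5, 18.02 and 14.995 FPKM against 27.1, 28.6 and 24.9 FPKM and 7.62, 7.54 and 6.08 FPKM against 10.8, 12.2 and 11.6 FPKM (0.70 and 0.64), and Gpihbp1, which anchors lipoprotein lipase in capillaries, at 79.2, 72.4 and 59.3 FPKM against 118, 142 and 156 FPKM (0.97). Kdr, the main VEGF receptor, and Cdh5, VE-cadherin, rose 1.64-fold and 1.74-fold (adjusted p = 0.0291 and 0.027), while Pecam1 did not pass (0.59, adjusted p = 0.0831). Vegfa, the growth factor of vessels, rose 1.84-fold (log2 change 0.86, SE 0.13, adjusted p = 0.0133). The endothelial list had 5 to 12 higher calls with 1 of the other 5 libraries left out (5 without the second library labelled knockout and 6 without the second control library), and a median of 0.68 without the third library labelled knockout. Of 7 lymphatic markers 0 passed, and of 14 pericyte and smooth muscle markers 2 were higher, beside 10.2% of all genes.

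The series asks about nutrient sensing and ceramide, so these pathways were read next. In insulin signalling 3 of 20 genes were higher and 2 lower, beside 14.9% of all genes called (median 0.28). Akt2, the kinase that carries the insulin signal in adipocytes, was at 86.4, 84.6 and 70.2 FPKM in the control libraries and 119.9, 127 and 125 FPKM in the libraries labelled knockout (log2 change 0.62, SE 0.10, adjusted p = 0.0156). Its paralogue Akt1 was at 98.7, 110.5 and 114 FPKM against 88.2, 76.3 and 80.4 FPKM and lower (log2 change -0.40, SE 0.10, adjusted p = 0.0408), as was the transcription factor gene Foxo3 (-0.40). Igfbp3, which binds insulin-like growth factors, rose 2.13-fold. In glycolysis and glucose uptake 6 of 18 were higher and 0 lower (median 0.13), beside 10.2% of all genes called higher. Of these 18 changes 8 were below 0 (lowest -0.87), and 4 members lay lower without overlap, beside 19.6% of all genes. Among the higher genes, Hk2, a hexokinase, was at 8.92, 7.41 and 6.35 FPKM against 14.1, 14.2 and 14.9 FPKM (0.86). Pfkfb3, which makes an activator of glycolysis, was at 93.3, 89.9 and 57.1 FPKM against 172, 183 and 189 FPKM (1.20). The insulin signalling list had 1 to 3 higher calls with 1 of the other 5 libraries left out (1 without the second library labelled knockout). The insulin signalling list had 0 to 1 lower calls with 1 of the other 5 libraries left out (0 without the second control library or the first or the second library labelled knockout and 1 without the first or the third control library). Without the third library labelled knockout the medians of the 2 lists were 0.27 and 0.07.

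Among 29 genes of mTORC1 and AMPK, the kinases that sense amino acids and energy, 2 were higher and 2 lower and the median was 0.06. Castor1, an arginine sensor that restrains mTORC1, was at 9.10, 8.75 and 6.55 FPKM in the control libraries and 12.7, 15.2 and 14.3 FPKM in the libraries labelled knockout (log2 change 0.73, SE 0.13, adjusted p = 0.0192). Deptor, an inhibitor of mTOR, was at 17.1, 22.3 and 12.8 FPKM against 29.7, 26.8 and 32.8 FPKM (log2 change 0.77, SE 0.19, adjusted p = 0.0411). Rragd, one of the GTPases that bring mTORC1 to the lysosome, was at 2.86, 2.56 and 2.23 FPKM against 1.22, 1.10 and 0.922 FPKM (log2 change -0.77, SE 0.12, adjusted p = 0.0147), close to the filter on low values in the libraries labelled knockout. Tfeb, the transcription factor of lysosome genes that mTORC1 controls, was at 28.5, 28.8 and 33.9 FPKM against 24.1, 18.6 and 22.7 FPKM (log2 change -0.47, SE 0.12, adjusted p = 0.045). These 4 calls among 29 genes stand beside 14.9% of all genes. The mTORC1 and AMPK list had 0 to 2 higher calls with 1 of the other 5 libraries left out (0 without the second library labelled knockout and 1 without the second or the third control library or the first library labelled knockout). The mTORC1 and AMPK list had 0 to 1 lower calls with 1 of the other 5 libraries left out (0 without the second control library and 1 without the first or the third control library or the first or the second library labelled knockout), and a median of 0.0025 without the third library labelled knockout.

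In ceramide and sphingolipid metabolism 4 of 32 genes were higher and 4 lower, beside 14.9% of all genes called in either direction, and the median was -0.15. Cers4, a ceramide synthase, was at 27.2, 17.2 and 14.96 FPKM in the control libraries and 48.9, 44.7 and 38.7 FPKM in the libraries labelled knockout (log2 change 1.16, SE 0.22, adjusted p = 0.0205). Ormdl3, which restrains the first enzyme of the pathway, was at 84.2, 73.9 and 56.3 FPKM against 111, 156 and 126 FPKM (0.87), Smpd1, the acid sphingomyelinase that frees ceramide from sphingomyelin, at 34.5, 34.5 and 29.3 FPKM against 44.96, 49.6 and 51.5 FPKM (0.56), and Kdsr, a reductase of ceramide synthesis, rose 1.32-fold. The lower genes were 2 ceramidases and 2 enzymes of sphingosine 1-phosphate, and in the TPM table Asah1 (1.42), Acer3 (0.34) and Sgpp1 (0.69) were above 0, beside 0.66 for all genes. Asah1, the acid ceramidase, was at 149.9, 175 and 181 FPKM against 129, 111 and 121 FPKM (-0.48), and Acer3, an alkaline ceramidase, changed by -0.57. Sgpp1, a phosphatase of sphingosine 1-phosphate, was at 29.05, 31.6 and 29.03 FPKM against 22.7, 18.9 and 20.6 FPKM (log2 change -0.51, SE 0.09, adjusted p = 0.0174), and Sgpl1, the lyase that degrades it, changed by -0.54 (adjusted p = 0.0421). The serine palmitoyltransferase genes and the other 3 ceramide synthase genes tested did not pass. The ceramide and sphingolipid metabolism list had 0 to 3 higher calls with 1 of the other 5 libraries left out (0 without the second control library or the second library labelled knockout and 2 without the third control library or the first library labelled knockout). The ceramide and sphingolipid metabolism list had 0 to 4 lower calls with 1 of the other 5 libraries left out (0 without the second control library, 1 without the third control library or the second library labelled knockout and 2 without the first library labelled knockout), and a median of -0.08 without the third library labelled knockout.

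FGF ligands, receptors and feedback genes included 3 higher and 0 lower of 18 tested, beside 14.9% of all genes called (median 0.23). Klb, the co-receptor that lets FGF21 act on adipocytes, was at 5.37, 5.08 and 2.80 FPKM in the control libraries and 10.99, 9.28 and 13.4 FPKM in the libraries labelled knockout (log2 change 1.20, SE 0.22, adjusted p = 0.0204). Fgfrl1, a decoy-like FGF receptor, was at 42.3, 41.5 and 31.4 FPKM against 88.4, 79.6 and 89.1 FPKM (1.15) and Spry4, an inhibitor that FGF signalling induces, at 6.15, 6.77 and 5.18 FPKM against 7.99, 10.4 and 10.3 FPKM (0.59). All 3 sets of values stood apart from the controls. The FGF list had 1 to 3 higher calls with 1 of the other 5 libraries left out (1 without the second control library), and a median of 0.05 without the third library labelled knockout.

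Mast cell genes were lower in the libraries labelled knockout. Of 12 markers tested 8 were lower and 0 higher, beside 4.70% of all genes called lower. All 12 changes were below 0, and the median was -2.35. The 250 bases before the start of 3 of these genes are shown for their GATA boxes (GATAA, or TTATC on the other strand, in capitals), since GATA factors are known to direct mast cell genes. From RefSeq on GRCm38.p6, Cma1 lies at chr14:55944676-55944925, minus strand, Fcer1a at chr1:173227230-173227479, minus strand and Ms4a2 at chr19:11623720-11623969, minus strand.
Cma1: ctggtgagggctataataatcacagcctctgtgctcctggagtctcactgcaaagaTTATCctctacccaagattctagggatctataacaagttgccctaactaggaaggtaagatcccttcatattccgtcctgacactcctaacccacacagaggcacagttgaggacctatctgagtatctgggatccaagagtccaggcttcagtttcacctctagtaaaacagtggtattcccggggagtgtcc
Fcer1a: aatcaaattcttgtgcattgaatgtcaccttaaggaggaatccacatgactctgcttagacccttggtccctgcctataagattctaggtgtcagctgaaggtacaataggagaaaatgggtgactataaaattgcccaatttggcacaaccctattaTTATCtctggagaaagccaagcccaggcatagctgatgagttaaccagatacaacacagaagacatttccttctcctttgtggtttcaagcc
Ms4a2: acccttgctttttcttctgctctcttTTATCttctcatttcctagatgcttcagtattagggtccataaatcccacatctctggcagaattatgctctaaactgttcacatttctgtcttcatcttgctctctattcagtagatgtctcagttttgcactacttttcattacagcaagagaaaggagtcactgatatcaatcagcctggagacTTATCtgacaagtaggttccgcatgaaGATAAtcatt
Of 10 tested members with a promoter entry 6 held GATAA on either strand (60%), against 6883 of 27025 genes (25.5%). Tpsab1 and Tpsb2 had no entry.

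The summed level of the 12 mast cell markers was 826, 1295 and 1681 FPKM in the control libraries and 96.4, 449 and 78.6 FPKM in the libraries labelled knockout. The second library labelled knockout was the highest of its group and lay below each control library. Cma1, a chymase stored in mast cell granules, was at 214, 331 and 396 FPKM in the control libraries and 20.6, 105 and 18.01 FPKM in the libraries labelled knockout (log2 change -3.12, SE 0.73, adjusted p = 0.0497). Tpsb2 and Tpsab1, granule tryptases that are close paralogues and may share reads, were at 216, 343 and 477 FPKM against 24.7, 109.7 and 19.6 FPKM and 7.39, 12.99 and 14.98 FPKM against 0.668, 2.40 and 0.411 FPKM (-3.08 and -2.62). Fcer1a and Ms4a2, chains of the IgE receptor, were at 22.6, 31.6 and 48.2 FPKM against 2.24, 10.7 and 1.81 FPKM and 3.26, 6.55 and 5.60 FPKM against 0.364, 2.36 and 0.380 FPKM (-2.82 and -1.69). Kit, the receptor for stem cell factor, was at 12.04, 15.5 and 18.7 FPKM against 2.99, 6.92 and 3.51 FPKM (log2 change -1.63, SE 0.28, adjusted p = 0.0183). A pair of enzymes of amine synthesis fell with them: Hdc, which makes histamine, was at 13.8, 7.60 and 12.4 FPKM against 1.12, 3.51 and 1.34 FPKM (-2.08), and Tph1, which makes serotonin and was not on the list, at 6.10, 10.2 and 15.9 FPKM against 0.223, 1.23 and 0.225 FPKM (log2 change -2.88, SE 0.37, adjusted p = 0.0122). Mrgprb2, a receptor found on mast cells, also fell (-1.67). Cpa3 and Mcpt4, further granule proteases, and Mrgprb1 had estimates of -3.06, -2.86 and -2.07 and missed the threshold (adjusted p = 0.0561, 0.0716 and 0.0535), as did Gata2 (-0.64), which other cells also express. The mast cell list had 2 to 11 lower calls with 1 of the other 5 libraries left out (2 without the second control library, 3 without the third control library or the first library labelled knockout and 5 without the first control library), and a median of -2.16 without the third library labelled knockout. In the TPM table the median was -1.54, while that of all genes was 0.66.

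**Figure D4:**
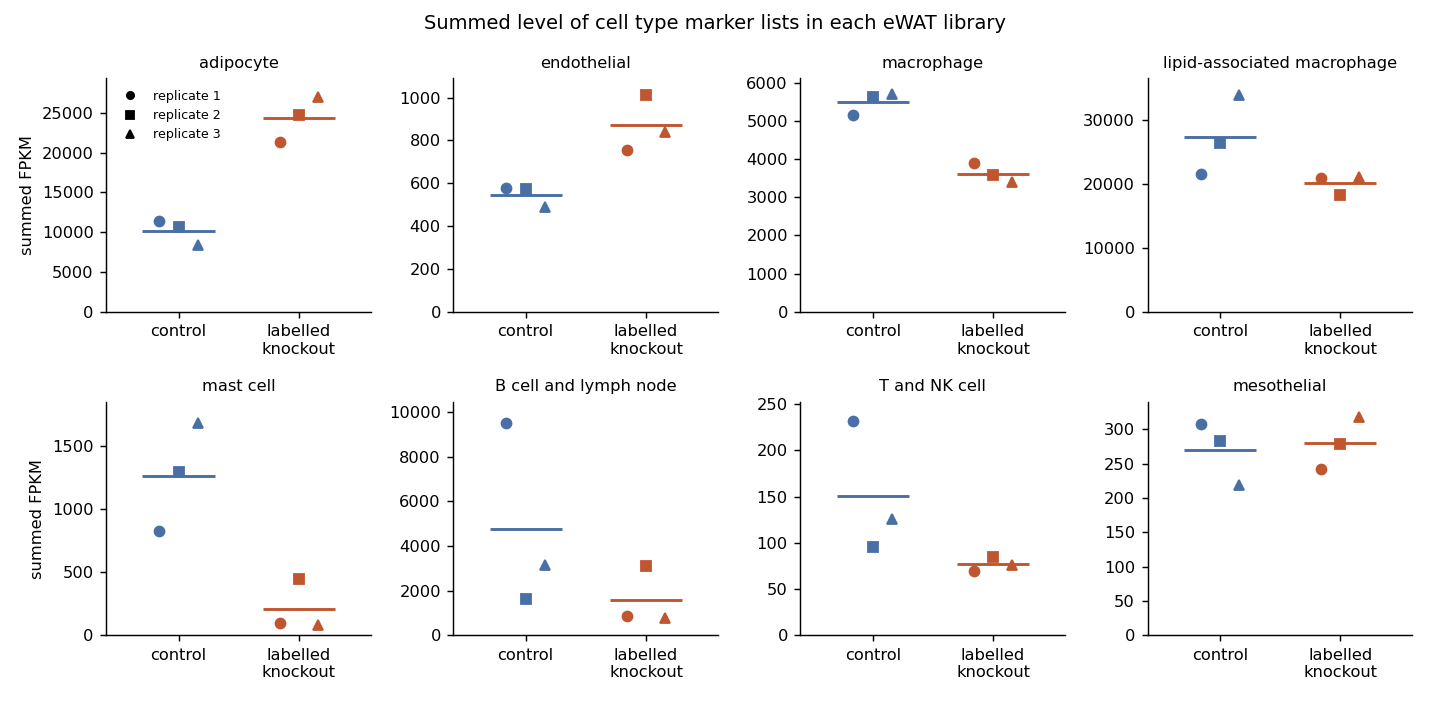
Summed FPKM of 8 cell type marker lists in each library (blue, control; orange, labelled knockout; symbols, replicates 1 to 3; bars, means). Mast cell and macrophage sums are lower and adipocyte and endothelial sums higher in all 3 libraries labelled knockout, the first control library stands apart for B and T cells, and mesothelial sums overlap.

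The summed antibody transcripts were lowest in 2 of the 3 libraries labelled knockout. Of 145 immunoglobulin gene segments tested 11 were lower and 0 higher, beside 4.70% of all genes lower and 14.9% called in either direction, 137 changes were below 0, and the median was -1.77. Segments of one family are near copies, so their single values are uncertain. Their sum was 18935, 3283 and 6587 FPKM in the control libraries and 1239, 6026 and 968 FPKM in those labelled knockout, so that the groups overlapped through the second library labelled knockout. Igkv6-15, a kappa variable segment, was at 103, 69.5 and 13.3 FPKM in the control libraries and 1.26, 2.21 and 0.431 FPKM in the libraries labelled knockout (log2 change -4.44, SE 0.83, adjusted p = 0.0315) and Igkv17-121 at 24.4, 18.5 and 27.5 FPKM against 0, 1.97 and 1.25 FPKM (log2 change -3.68, SE 0.41, adjusted p = 0.0122). Igkc, the kappa constant region, was at 5751, 855 and 1919 FPKM against 219, 1626 and 151 FPKM, with overlap, and did not pass (adjusted p = 0.213). Of 14 markers of B cells and lymph nodes 1 was lower, Cd37, a tetraspanin of several leukocytes, at 113, 96.96 and 100.1 FPKM against 77.5, 57.3 and 63.96 FPKM (-0.64). The summed level of this list was 9515, 1639 and 3174 FPKM in the control libraries and 868, 3100.2 and 790.4 FPKM in the libraries labelled knockout. Of 18 T and NK cell markers 0 passed, 4 did not overlap and lay lower, beside 19.6% of all genes that did so, and the sums were 232, 95.4 and 126 FPKM in the control libraries and 69.8, 85.1 and 76.4 FPKM in the libraries labelled knockout. The first control library stood highest for both lists. Without it the list medians moved from -1.06 to -0.29 and from -0.91 to -0.46.

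Macrophage markers moved in both directions. Of 21 tested 7 were lower and 3 higher, beside 4.70% of all genes called lower and 10.2% called higher. The median was -0.53, with 15 changes below 0 and 6 above. The sums were 5151, 5616 and 5706 FPKM in the control libraries and 3887, 3575 and 3400.0 FPKM in the libraries labelled knockout, with every control library above every library labelled knockout. Mertk, a receptor for the uptake of dying cells, was at 15.2, 14.98 and 17.7 FPKM in the control libraries and 9.47, 8.38 and 9.95 FPKM in the libraries labelled knockout (log2 change -0.72, SE 0.10, adjusted p = 0.0122). C1qa, C1qb and C1qc, the chains of complement C1q that tissue macrophages make, were at 859, 864 and 826 FPKM against 554, 625 and 505 FPKM, at 1252, 1282 and 1283 FPKM against 923, 861 and 776 FPKM and at 917, 929 and 894 FPKM against 583, 605 and 502 FPKM (-0.60, -0.58 and -0.70). Adgre1 (F4/80) and the mannose receptor gene Mrc1 also fell (-0.66 and -0.63). The 3 higher members were F13a1, the coagulation factor XIII A chain, at 24.7, 28.2 and 23.2 FPKM against 40.7, 34.8 and 40.3 FPKM (0.59), the lectin Cd209f at 9.36, 13.6 and 8.30 FPKM against 25.4, 16.8 and 37.5 FPKM (1.23) and the carbonyl reductase Cbr2 (0.62, adjusted p = 0.0489). Cd209d, another lectin of that family and not on the list, was at 1.94, 3.18 and 1.54 FPKM against 15.9, 8.28 and 18.02 FPKM (log2 change 2.19, SE 0.31, adjusted p = 0.0127). The macrophage list had 0 to 3 higher calls with 1 of the other 5 libraries left out (0 without the first library labelled knockout and 1 without the first, the second or the third control library). The macrophage list had 1 to 8 lower calls with 1 of the other 5 libraries left out (1 without the second control library and 4 without the second library labelled knockout), and a median of -0.50 without the third library labelled knockout. In the TPM table the median of the list was 1.00 beside 0.66 for all genes, a reversed sign, and C1qa, C1qb and C1qc were reversed there too.

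Of 18 genes of lipid-associated macrophages, the cells that gather around dying adipocytes in obese fat, 3 were lower and 1 higher (median -0.62). Of all genes 4.70% were called lower and 10.2% higher. Lipa, the lysosomal acid lipase, was at 388, 537 and 633 FPKM against 329, 249.96 and 294 FPKM (log2 change -0.81, SE 0.20, adjusted p = 0.0407), the tetraspanin gene Cd9 at 301, 402 and 488 FPKM against 258, 205 and 242 FPKM (-0.73), and the adaptor gene Tyrobp at 1057, 1224 and 1535 FPKM against 908, 719.9 and 806 FPKM (-0.64). Trem2, the lipid receptor that pairs with this adaptor, was at 436, 569 and 715 FPKM against 385, 293 and 336 FPKM and just missed the threshold (adjusted p = 0.051). Mmp12, the macrophage elastase, was at 1143, 1889 and 4186 FPKM against 684, 399.5 and 774 FPKM (adjusted p = 0.063). The third control library was the highest for Lipa, Cd9, Tyrobp, Trem2 and Mmp12. Acp5, a phosphatase of macrophages and osteoclasts, was the 1 higher member (165, 135 and 133 FPKM against 204, 228 and 229.8 FPKM; 0.61). The lipid-associated macrophage list had 0 to 7 lower calls with 1 of the other 5 libraries left out (0 without the second or the third control library or the first library labelled knockout, 1 without the second library labelled knockout and 7 without the first control library), and a median of -0.67 without the third library labelled knockout. In the lysosome list 3 of 28 genes were lower and 0 higher (median -0.43), with 27 changes below 0. The lysosome and phagosome list had 0 to 11 lower calls with 1 of the other 5 libraries left out (0 without the second control library or the first or the second library labelled knockout, 1 without the third control library and 11 without the first control library), and a median of -0.45 without the third library labelled knockout. In the TPM table these 2 medians were 1.13 and 0.71, beside 0.66 for all genes. Those of the ceramide, cytokine and immediate early lists were above 0 there as well, at 0.77, 0.45 and 1.20.

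Among 27 cytokines and chemokines 4 were lower and 1 higher, beside 14.9% of all genes called (median -0.41). Il33, an alarmin of stromal cells, was at 13.4, 11.5 and 11.6 FPKM in the control libraries and 3.61, 7.46 and 4.43 FPKM in the libraries labelled knockout (log2 change -1.14, SE 0.22, adjusted p = 0.022). Ccl3 and Ccl6, chemokines of myeloid cells, were at 11.1, 12.4 and 17.4 FPKM against 5.21, 8.03 and 5.11 FPKM and 477, 570.5 and 665 FPKM against 376, 318 and 381 FPKM (-1.04 and -0.66), and Cxcl14 fell by 1.19 on the log2 scale (adjusted p = 0.0439). Saa3, an acute phase protein that fat makes, was the higher member, at 55.1, 56.03 and 52.7 FPKM in the control libraries and 126, 190.4 and 151 FPKM in the libraries labelled knockout (log2 change 1.48, SE 0.15, adjusted p = 0.0122). Of 19 complement genes 6 were lower, the C1q chains among them, and 2 higher. Of the 29 interferon response genes tested 1 was higher and 0 lower. The inflammatory cytokines and chemokines list had 0 to 4 lower calls with 1 of the other 5 libraries left out (0 without the second control library and 1 without the third control library or the first library labelled knockout), and a median of -0.44 without the third library labelled knockout. The complement list had 1 to 6 lower calls with 1 of the other 5 libraries left out (1 without the second control library and 3 without the first or the second library labelled knockout), and a median of -0.30 without the third library labelled knockout. The complement list had 0 to 2 higher calls with 1 of the other 5 libraries left out (0 without the second control library and 1 without the third control library or the second library labelled knockout), and its median turned from -0.17 to 0.97 in the TPM table, beside 0.66 for all genes there.

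Of 32 genes of the extracellular matrix 2 were higher and 2 lower (median 0.11, and -0.03 without the third library labelled knockout). Beside this count and the others in this paragraph, 10.2% of all genes were called higher, 4.70% lower and 14.9% in either direction. Of 26 genes of collagen crosslinking and remodelling 1 was higher and 2 lower (median -0.32). The collagen crosslinking and matrix remodelling list had 0 to 9 lower calls with 1 of the other 5 libraries left out (0 without the second control library or the first or the second library labelled knockout, 1 without the third control library and 9 without the first control library), and a median of -0.30 without the third library labelled knockout. The extracellular matrix list had 0 to 2 lower calls with 1 of the other 5 libraries left out (0 without the second or the third control library or the first or the second library labelled knockout). Timp4, an inhibitor of metalloproteinases, was at 9.43, 5.73 and 3.63 FPKM against 23.1, 18.6 and 24.8 FPKM (log2 change 1.75, SE 0.29, adjusted p = 0.0167), and Mmp3, stromelysin, at 23.6, 37.0 and 59.6 FPKM against 11.6, 13.03 and 7.44 FPKM (log2 change -1.75, SE 0.36, adjusted p = 0.0291). Of 18 fibroblast and progenitor markers 2 were lower, Thy1 at 47.9, 44.97 and 81.4 FPKM against 27.2, 17.9 and 28.4 FPKM and the adhesion molecule gene Icam1 at 28.1, 25.1 and 29.2 FPKM against 19.2, 19.2 and 17.5 FPKM (-1.19 and -0.53), and of 16 mesothelial markers 0 passed. Of 21 immediate early genes 3 were lower, Myc at 19.3, 16.3 and 22.6 FPKM against 11.2, 11.99 and 13.5 FPKM, Klf2 at 54.3, 48.3 and 64.2 FPKM against 39.1, 39.9 and 38.7 FPKM and Dusp1 at 67.8, 98.5 and 88.8 FPKM against 50.7, 54.99 and 58.8 FPKM (-0.62, -0.48 and -0.61). The immediate early genes list had 0 to 8 lower calls with 1 of the other 5 libraries left out (0 without the first or the second library labelled knockout, 1 without the third control library and 8 without the first control library), and a median of -0.23 without the third library labelled knockout. These genes react to handling of tissue, and their part in other changes was not tested.

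Thermogenic genes had 2 of 10 higher, beside 10.2% of all genes, and 0 lower, with a median of 0.35 and of 0.42 without the third library labelled knockout. Kcnk3, a potassium channel, was at 8.59, 8.04 and 5.13 FPKM against 14.7, 16.5 and 16.5 FPKM and Otop1, a proton channel, at 3.92, 3.66 and 2.91 FPKM against 5.68, 6.71 and 6.28 FPKM (1.06 and 0.69). In the stress response list 2 of 23 were higher, beside 10.2% of all genes, and the median was -0.05 with 13 changes below 0. The 2 called genes encode enzymes of serine synthesis, with Phgdh at 64.2, 50.1 and 41.1 FPKM in the control libraries and 159.5, 120.5 and 155 FPKM in the libraries labelled knockout (log2 change 1.48, SE 0.18, adjusted p = 0.0122) and Psat1 at 33.1, 37.1 and 30.8 FPKM against 69.4, 55.6 and 72.3 FPKM (0.94). Of 25 genes against oxidative stress 5 were higher and 1 lower (median -0.01). The glutathione and oxidative stress list had 3 to 6 higher calls with 1 of the other 5 libraries left out (3 without the second control library). The glutathione and oxidative stress list had 0 to 6 lower calls with 1 of the other 5 libraries left out (0 without the second control library or the first or the second library labelled knockout, 5 without the third control library and 6 without the first control library), and a median of -0.06 without the third library labelled knockout. Sod3, the secreted superoxide dismutase, was at 96.8, 92.8 and 70.3 FPKM against 176, 197 and 191 FPKM (1.12), while Txnrd1, the thioredoxin reductase, fell by 1.03 on the log2 scale (adjusted p = 0.0421) and Prdx1, a peroxidase it serves, did not pass at -1.55 (adjusted p = 0.0551). Of 35 cytosolic ribosomal protein genes 0 passed and 33 changes were below 0, the range being -0.26 to 0.01. Of 18 skeletal muscle markers 8 were tested, with 3 higher and 0 lower, beside 10.2% of all genes called higher. Their median was 0.29, and 0.27 without the third library labelled knockout, with 5 changes above 0 and 3 below (lowest -0.44). The higher markers included Myl1, a fast muscle myosin light chain, at 11.1, 10.99 and 9.83 FPKM against 23.5, 28.7 and 28.3 FPKM (log2 change 1.25, SE 0.10, adjusted p = 0.00976). Pvalb, parvalbumin, was at 3.19, 4.53 and 3.33 FPKM against 10.2, 8.14 and 8.997 FPKM (1.12).

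Several genes outside these lists had the largest or the most regular changes. Amhr2, the receptor of anti-Müllerian hormone, was at 1.52, 1.07 and 0.804 FPKM in the control libraries and 9.30, 5.61 and 11.2 FPKM in the libraries labelled knockout (log2 change 2.16, SE 0.25, adjusted p = 0.0122). Mogat2, a monoacylglycerol acyltransferase, was at 3.09, 2.77 and 2.58 FPKM against 14.1, 8.82 and 12.2 FPKM (1.72), and the potassium channel gene Kcnh2 at 6.19, 2.21 and 2.16 FPKM against 13.2, 13.6 and 14.1 FPKM (1.81). Snora57, a small nucleolar RNA, had a listed value of 0 in the controls and of 11.5, 12.1 and 6.27 FPKM in those labelled knockout. It passed the filter on low values only through the latter libraries, and was not tested when any of these was left out. Orm1, an acute phase carrier protein, was at 89.9, 80.9 and 54.7 FPKM against 256, 237 and 265 FPKM and Igfals, a partner of insulin-like growth factors in blood, at 22.2, 12.5 and 8.76 FPKM against 46.5, 57.2 and 43.3 FPKM (1.77 and 1.77). Wfdc21, a small secreted protein of the WAP family, was at 90.5, 84.6 and 68.6 FPKM against 239.9, 232 and 213 FPKM, and Eepd1, a nuclease domain protein, at 23.2, 22.4 and 18.97 FPKM against 52.2, 53.6 and 47.7 FPKM (1.49 and 1.22). Pfkfb1, of the same family as Pfkfb3, had narrow groups, 7.65, 7.21 and 6.88 FPKM against 13.4, 14.1 and 14.9 FPKM. All of these groups stood apart, which the rule that chose these genes required, beside 41.2% of all genes without overlap.

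Among lower genes, Prkcb, the beta isoform of protein kinase C, was at 53.5, 47.7 and 61.5 FPKM in the control libraries and 18.8, 17.3 and 17.3 FPKM in the libraries labelled knockout (0.328 times control; log2 change -1.55, SE 0.11, adjusted p = 0.00467). Ncf1, a subunit of the phagocyte oxidase, was at 76.8, 88.9 and 117 FPKM against 37.03, 36.2 and 38.01 FPKM (-1.30), Mt3, a metal-binding protein, at 12.9, 15.8 and 17.7 FPKM against 2.41, 3.69 and 5.16 FPKM (-1.83), and Bcl2a1b, a survival factor of leukocytes with near-identical copies in the genome, at 87.2, 86.1 and 88.5 FPKM against 55.2, 49.9 and 50.99 FPKM (-0.74). None of these genes passed without the third library labelled knockout, a fit in which 2 genes passed in all.

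Set beside the other sets, eWAT had the most calls. With the same limma fit on CPM (reads scaled to the library total), 0 genes passed in ieWAT and 3 in sWAT, and with edgeR on whole reads recovered from the same values 0 and 1 did (394 and 1257 genes with an unadjusted p under 0.05). A difference between sets was not tested. Across genes, which are not independent replicates, changes in eWAT and ieWAT correlated at -0.22 (13280 genes) and in eWAT and sWAT at 0.41 (12841 genes), as Pearson's r. Of the genes called lower in eWAT and tested in sWAT, 63 of 586 (10.8%) had a change above 0 in sWAT, against 36.5% of all genes, and of those called higher 831 of 1382 (60.1%). In ieWAT the shares were 255 of 625 (40.8%) and 894 of 1372 (65.2%), against 54.5% of all genes. The median change in ieWAT of the genes called higher in eWAT was 0.04, and Lep (-0.06), Adipoq (0.12) and Slc2a4 (0.00) overlapped between groups there.

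A few genes set apart both the eWAT and the sWAT libraries labelled knockout and not those of ieWAT. Gm7049 and Gm11868, predicted processed pseudogenes chosen after their values were seen, had the smallest and nearly the smallest p in eWAT. Both reached 1 FPKM in the libraries labelled knockout only. At such control levels the filter on low values passes only genes without overlap, so their separation in eWAT was fixed in advance. They were not tested when any library labelled knockout was left out. Gm7049 was at 0.0519, 0.0920 and 0 FPKM against 14.4, 12.3 and 18.999 FPKM (adjusted p = 0.00104), and in sWAT at 0.141, 0.222 and 0.245 CPM against 15.1, 28.5 and 30.7 CPM. Gm11868 was at 0.0177, 0.0176 and 0 FPKM against 4.13, 3.61 and 3.45 FPKM (adjusted p = 0.00172), and in sWAT at 0, 0 and 0 CPM against 2.76, 2.58 and 2.51 CPM. In ieWAT all 6 libraries were at 0.0229 to 0.368 CPM for Gm7049 and at 0 to 0.0813 CPM for Gm11868. In transcripts of GENCODE M21, 65.3% of the stretches of 31 bases of Gm7049 also occur in Me1 and 57.9% of those of Gm11868 in Cyb5r4, so reads could be shared with these genes. Me1, the malic enzyme that supplies NADPH to lipogenesis, was at 118, 127 and 84.7 FPKM against 159, 154 and 207 FPKM in eWAT (adjusted p = 0.0585) and at 975, 1001 and 932 CPM against 496, 822 and 844 CPM in sWAT. Cyb5r4, a cytochrome b5 reductase, was at 27.7, 31.7 and 34.9 FPKM against 22.9, 18.95 and 21.2 FPKM in eWAT (-0.56) and at 37.2, 36.9 and 38.2 CPM against 30.5, 30.4 and 30.7 CPM in sWAT. Another pseudogene, Morf4l1-ps1, was at 22.4, 21.6 and 14.3 FPKM against 38.9, 45.3 and 48.9 FPKM in eWAT and at 1.65, 0 and 0 CPM against 13.04, 13.2 and 12.8 CPM in sWAT, and shares 95.3% of its stretches with Morf4l1.

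Bckdhb and Gsta4, a glutathione transferase that clears lipid aldehydes, followed the same order of sets. Gsta4 was at 5.79, 2.70 and 2.73 FPKM against 11.8, 22.5 and 14.97 FPKM in eWAT (log2 change 1.89, SE 0.31, adjusted p = 0.0164), at 3.52, 6.34 and 7.52 CPM against 6.60, 12.6 and 6.42 CPM in ieWAT and at 8.14, 11.9 and 7.22 CPM against 45.3, 28.7 and 29.3 CPM in sWAT. Bckdhb was at 33.98, 31.5 and 43.02 CPM against 40.1, 45.9 and 30.4 CPM in ieWAT, with overlap, and at 47.2, 52.4 and 46.4 CPM against 85.4, 94.5 and 85.6 CPM in sWAT, without. The changes in sWAT were 1.81 for Gsta4 and 0.85 for Bckdhb. Gsta4, Bckdhb, Me1 and Cyb5r4 all lie on chromosome 9 in GENCODE M21, where 6 of the 33 tested genes from Gsta4 to Cyb5r4 were called (18.2%, 3 higher and 3 lower), beside 106 of 755 on the whole chromosome (14.0%) and 14.9% of all genes. The ends of this stretch, Gsta4 and Cyb5r4, and Bckdhb within it are themselves called genes, picked with their values known. That choice raises the share of the stretch, so the shares cannot be compared as a test. Prkcb had a change of -1.13 in sWAT, without overlap and with an adjusted p of 0.447, and of -0.10 in ieWAT.

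**Figure D5:**
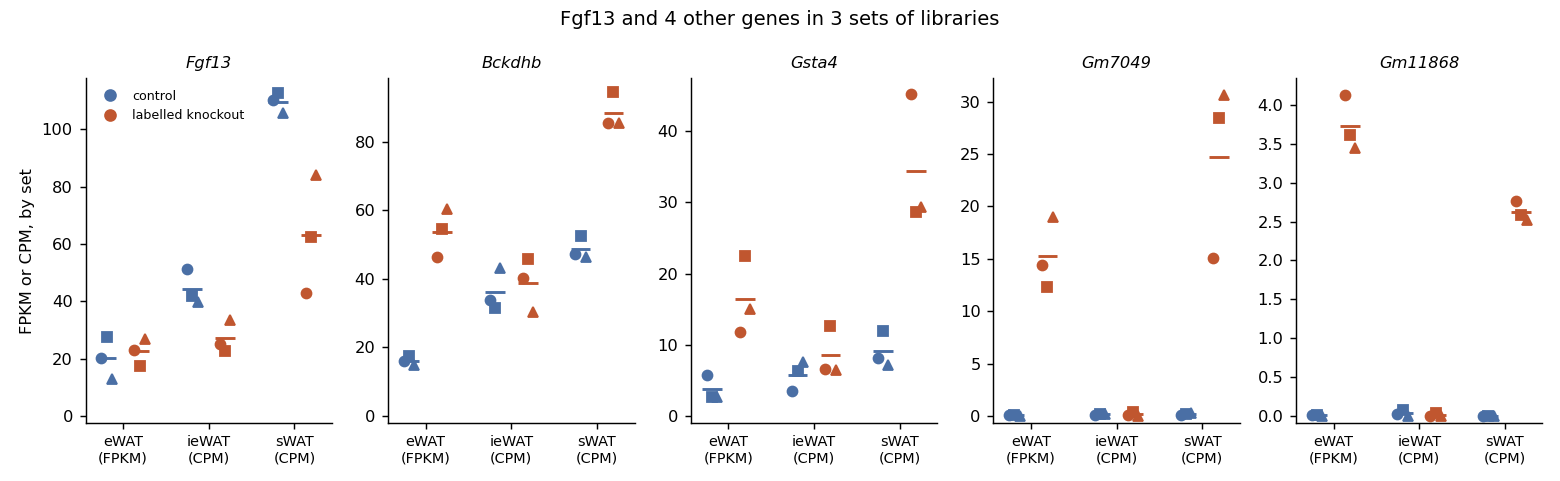
Values of Fgf13 and 4 other genes in each library of eWAT (FPKM), ieWAT (CPM) and sWAT (CPM), blue for control and orange for labelled knockout, symbols for replicates 1 to 3 and bars for means; levels compare within a set only. Fgf13 is lower in the labelled knockout libraries of ieWAT and sWAT and overlaps in eWAT, whereas Gm7049 and Gm11868 are near 0 in all libraries except those labelled knockout in eWAT and sWAT.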

How the data were processed

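RNA of whole fat pads was sequenced as bulk libraries on an Illumina HiSeq, per the labels' protocols. The submitters' processing notes name Salmon, FastQC, MultiQC and DESeq2 1.38.3, without saying which table each made, and no source used here gives the genome build or aligner. The eWAT values are FPKM deposited by the authors, those of ieWAT and sWAT CPM deposited by the authors, and a further eWAT table deposited by the authors, though named as raw counts, holds TPM. Columns were assigned to libraries by their titles. From the FPKM, genes with at least 1 FPKM in 3 libraries were fitted on log2(FPKM + 1) with limma 3.58.1 (trended, robust eBayes; R 4.3.3), with Benjamini-Hochberg adjustment over all 13736 genes and a threshold of 0.05. The same fit served ieWAT and sWAT. Of their values 100% came to whole reads within 0.01 reads, and edgeR 4.0.16 was run on these reads, an alternative chosen after seeing the data. Of the genes tested 98.6% had a symbol. Promoters are from RefSeq (GRCm38.p6).

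The members and gene lists were chosen with earlier results of these data known. Genes named were Fgf13, the 15 largest changes in each direction among called genes without overlap and at 1 FPKM or more in the higher group, the 10 smallest p in each direction, up to 4 called members of each list by p, and 8 fixed genes, predicted gene models being left out of the ranks. Genes named outside this rule, chosen after their values were seen, are Plin1, Fads1, Insig1, Hmgcs1, Asah1, Cavin2, Ehd1, Cpa3, Igkc, Cd209f, Trem2, Mmp12, Mrc1, Gm7049, Gm11868, Me1, Cyb5r4, Morf4l1-ps1, Kdsr, Acer3, Sgpl1, Foxo3, Txnrd1, Cxcl14, Adrb3, Cbr2, Adgre1, Mcpt4, Gata2, Mrgprb1, Mrgprb2, Retnla, Gm8210, Ppm1k, Cd36, Lpl, Igkv3-2, Kdr, Cdh5, Pecam1, Prdx1, Bcat2 and Bckdk. FPKM carries no read totals, so the depth behind each value is unknown and 3 libraries a group limit the precision. Alternatives were other pseudocounts, filters, scalings, variance models, thresholds, the TPM table, a replicate block and each library left out. Some genes that the rule selects are not reported here.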

Additional observations from a re-analysis of the deposited data

Results flagged for a closer look

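Among the genes named, 2 immunoglobulin kappa segments moved apart in opposite directions in the 2 epididymal sets, every library of one group beyond every library of the other in each. Igkv17-121 had a log2 change of -3.68 in eWAT and 3.69 in ieWAT, where it averaged 0.718 CPM in controls and 54.9 CPM in the knockout group (limma adjusted p = 1.00 there). Igkv3-2, chosen after its values were seen, was at 1806, 53.1 and 530.5 FPKM against 11.9, 30.5 and 0.176 FPKM in eWAT (-5.58, adjusted p = 0.105) and changed by 3.09 in ieWAT. The difference between the sets was not tested.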

How the results depend on the processing

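Calls numbered 1561 to 2306 under other pseudocounts, a minimum of 5 FPKM, TPM, median ratio or quantile scaling and a plain eBayes fit, and no named gene reversed under a scaling. Without a filter on low values 544 genes passed (457 higher, 87 lower), with array weights 3858 (2203 and 1655), at an adjusted p of 0.1 3618 (2138 and 1480) and at 0.01 10 (6 and 4). With 1 library left out, 2 to 1895 genes passed, 0 to 1222 higher and 2 to 673 lower, and Fgf13 changed by -0.091 to 0.43, reversed at -0.091 without the third control library. With the replicate number as a block 0 genes passed (0 higher and 0 lower; 3976 with an unadjusted p under 0.05 and 1950 at an adjusted p of 0.1). Same-numbered libraries correlated at -0.24, -0.32 and 0.06 in their deviations from the group means. The labels do not say whether the numbers pair libraries. These correlations cannot decide it, since the deviations within a group sum to 0. With the deposited TPM values 1 gene passed (0 higher, 1 lower), and the cause was not tested. There 31 named genes reversed, beside a median change of all genes of 0.66. Those below 0 in FPKM and above 0 there were Fads1 (0.79), Akt1 (1.28), Tfeb (0.63), Sgpp1 (0.69), Asah1 (1.42), C1qa (2.02), C1qb (1.502), C1qc (2.17), Cd9 (1.12), Tyrobp (1.68), Trem2 (1.27), Mmp12 (0.23), Cd37 (1.48), Myc (1.53), Klf2 (0.54), Dusp1 (1.25), Ccl3 (1.15), Ccl6 (0.20), Ncf1 (0.44), Bcl2a1b (0.65), Thy1 (0.0346), Icam1 (1.04), Cyb5r4 (0.68), Acer3 (0.34), Foxo3 (0.56), Txnrd1 (0.13) and Cd36 (0.90). Those above 0 in FPKM and below 0 there were Cpt2 (-0.14), Hibch (-0.20), Dbt (-0.12) and Psat1 (-0.49). FPKM gives no read totals, which limits what low values show.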

Other observations

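Gm8210, a predicted gene that entered no list and was chosen after its values were seen, had the largest estimate among genes higher in eWAT. It was at 203, 0 and 0.763 FPKM against 423, 186 and 207 FPKM, so that 1 control library resembled the libraries labelled knockout, and it did not pass the test (5.16, adjusted p = 0.174).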
